A study of Mus musculus with 2 samples.

Results

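The cytosolic ribosomal protein genes encode the proteins of the large and the small subunit of the ribosome that translates nuclear mRNA. They were chosen by symbol, as the protein-coding mouse genes named Rpl or Rps with a number, together with Rplp0, Rplp1, Rplp2 and Rpsa. Names starting with Rps6k, which are kinases, and names ending in -ps were left out. The rule gave 86 of the 52768 genes in each table, 52 of the large subunit, 33 of the small subunit and Rps19bp1, which is named after the binding of its protein to RPS19 and is not a ribosomal protein. Paralogs such as Rpl3l were kept. The values come from interscapular brown adipose tissue (iBAT) of 8-week-old C57BL/6 mice. The flox/flox group carried the genotype METTL3flox/flox, and the BKO group METTL3flox/flox UCP1-iCre+/-, so that both groups carried the floxed allele and only BKO the Cre. The Ucp1 promoter drives this Cre in brown adipocytes, and the other cells of the tissue keep a working allele. RNA of 4 mice was pooled into 1 library per group, so the data have no replicates, no test between genotypes is possible, and a library is called a pool below.

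Values are FPKM, fragments per kilobase of exon scaled to library size, which is a scale per length. The fragments behind each value could be recovered as whole numbers for most genes, and their totals were 18933004 in the flox/flox pool and 20224258 in the BKO-labelled pool. A ratio is the FPKM of the BKO-labelled pool over that of the flox/flox pool, with an exact Clopper-Pearson 95% interval from the fragments that covers counting error only. Mettl3, the N6-methyladenosine methyltransferase gene that carries the floxed allele, had 1.80 FPKM (165 fragments) in the flox/flox pool and 2.38 FPKM (253 fragments) in the BKO-labelled pool, a ratio of 1.32 (1.08 to 1.62). The level of the whole gene was therefore not lower in the BKO-labelled pool. The floxed exons were not counted apart from the rest of the gene or from cells without Cre, so this value cannot check the label. Brown adipocyte markers were present in both libraries, and their level summed over 11 genes was 10725 FPKM in the flox/flox pool and 6885 FPKM in the BKO-labelled pool. Ucp1 was at 3164 and 537 FPKM and Adipoq at 665 and 1150 FPKM. Of these 11 markers, 3 were at least 2-fold lower in the BKO-labelled pool and 0 at least 2-fold higher. Over all 12205 genes averaging at least 1 FPKM, the filter used here, 5.91% were at least 2-fold lower and 11% at least 2-fold higher. Of the skeletal muscle markers, 12 of 12 past the filter were at least 2-fold higher, with a summed level of 57.0 and 3571 FPKM, and Myh7, a slow myosin heavy chain, went from 0.033 to 42.0 FPKM. Tnnc2 was listed at 0 in both libraries. All 10 macrophage markers were at least 2-fold higher (109 and 563 FPKM summed, Itgam 0.273 and 2.02 FPKM), while 6 of 8 endothelial markers were at least 2-fold lower (308 and 120 FPKM summed, Cldn5 70.6 and 19.4 FPKM). The 5 erythroid markers summed to 834 and 567 FPKM, none past 2-fold (Hbb-bt 63.4 and 40.1 FPKM), and of the 2 B cell markers past the filter Ighm was at 4.58 and 9.09 FPKM and Cd79a at 2.04 and 0.712 FPKM. In bulk tissue, fewer cells of a type and less RNA per cell cannot be told apart.

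In mammalian cells the ribosomal proteins are made in near equal numbers, since each ribosome holds a single copy of most of them and surplus protein is degraded. Their mRNAs are short and abundant, and as a class begin with a terminal oligopyrimidine (TOP) tract, a C at the cap followed by an unbroken run of C and T. Translation of TOP mRNAs depends on mTORC1 and on the binding protein Larp1. The genes are also known for their many processed pseudogenes, intronless copies of the mRNA inserted elsewhere in the genome, and a read that fits a gene and its copy equally cannot be assigned to either.

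Promoter windows of 66 members were found among the RefSeq promoter sequences (GRCm38.p6), and the start below is the one each window is built on. Of the 17492 protein-coding windows, 10583 were built on the start of the RefSeq gene. The 30 bases around the start, 15 on each side, are shown for Rps6 as an example of a TOP start, and for the paralogs with the largest ratios beside their main copies where a sequence was found. Capitals mark the longest run of C and T that reaches within 5 bases of the start.
Rps6 (chr4:86857353-86857382, minus strand): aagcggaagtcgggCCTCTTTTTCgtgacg
Rpl3l (chr17:24727811-24727840, plus strand): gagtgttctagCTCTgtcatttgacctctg
Rpl39 (chrX:37085208-37085237, minus strand): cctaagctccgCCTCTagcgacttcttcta
Rpl39l (chr16:10170213-10170242, plus strand): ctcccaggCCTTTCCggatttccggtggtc
Rpl22 (chr4:152324421-152324450, plus strand): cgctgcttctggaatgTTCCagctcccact
Rpl22l1 (chr3:28805493-28805522, plus strand): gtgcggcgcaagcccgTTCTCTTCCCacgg
The run was 10 bases long in Rps6 and in Rpl22l1, 7 in Rpl39l, 5 in Rpl39 and 4 in Rpl3l and Rpl22. The gene as annotated for the FPKM values starts within the printed bases only for Rpl3l and Rpl39l. It starts elsewhere for Rps6 (86857412), Rpl39 (37085402), Rpl22 (152325742) and Rpl22l1 (28805436). Whether the printed starts are the ones used in this tissue was not tested. Over the 66 members, 35 (53.0%) had such a run of at least 5 bases, against 31.3% of 17492 protein-coding promoters, and 21 (31.8%) had one of at least 8 bases, against 9.26%. A C exactly at the annotated start followed by 4 pyrimidines was found in 13 members (19.7%) and in 2.17% of all promoters. Within the RefSeq windows, the ETS core CGGAAG stood on either strand in 44 members (66.7%) and in 21.5% of all promoters, ATGGCGG in 15.2% and 5.44%, the GC box GGGCGG in 60.6% and 46.3%, and TATAAA in 10.6% and 13.3%. No overlap between these motifs was removed. These matches describe the letters of the windows and say nothing of binding.

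In both libraries the ribosomal protein genes were among the strongly expressed genes and covered a wide range of FPKM. Of the 86 members, 84 averaged 1 FPKM or more across the pools and entered the comparison. The others were Rpl10l, a copy of Rpl10 known from the testis in mouse, which was listed at 0 in both libraries, and Rpl36al, a copy of Rpl36a, at 0.211 FPKM (5 fragments) and 0.146 FPKM (4 fragments). Of the exon bases of Rpl36al, 24.5% lie in exons of Gm49383, which was listed at 0 in both libraries. Of the 50-base stretches of its main transcript, 63.3% occur in other genes, so the level of Rpl36al is uncertain. The median level was 87.1 FPKM in the flox/flox pool and 90.9 FPKM in the BKO-labelled pool. In the former 38 members reached 100 FPKM and in the latter 37. Together all members took 1.39% of the fragments in genes of the flox/flox pool (1.38% to 1.39%, Wilson) and 1.54% in the BKO-labelled pool (1.54% to 1.55%). Without the mitochondrially encoded genes in the total, these shares were 1.69% (1.68% to 1.70%) and 1.71% (1.70% to 1.71%).

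By FPKM, Rplp1, an acidic protein of the P-stalk that recruits translation factors, was the highest member, at 820 FPKM in the flox/flox pool and 957 FPKM in the BKO-labelled pool. Rpl36 followed at 629 and 557 FPKM. Below these, between 227 and 360 FPKM in both pools, came Rpl8, which lies near the peptidyl transferase centre (360 and 338 FPKM), Rps15 (329 and 360 FPKM), Rpl41, the smallest ribosomal protein (296 and 314 FPKM), Rplp0 (260 and 301 FPKM), Rps3a1 (267 and 291 FPKM), Rps2 at the mRNA entry (261 and 251 FPKM) and Rps14 (244 and 227 FPKM). Neighbours in this order differed by less than the same gene differed between the pools in several places, such as Rplp0 and Rps3a1. Across the 84 members the order of FPKM was nearly the same in both libraries, with a Spearman correlation of 0.98 over genes that share the same exon lengths and mapping in both. The length used for FPKM counts all annotated exons and was a median 2.01 times that of the main transcript, up to 7.18 times, so FPKM understates most levels. Per length of the main transcript the medians were 192 in the flox/flox pool and 201 in the BKO-labelled pool, and 7 of the 10 most abundant members were the same. The order among them changed, with Rps14 at 977 and 909 beside Rplp1 at 820 and 957.

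**Figure D1:**
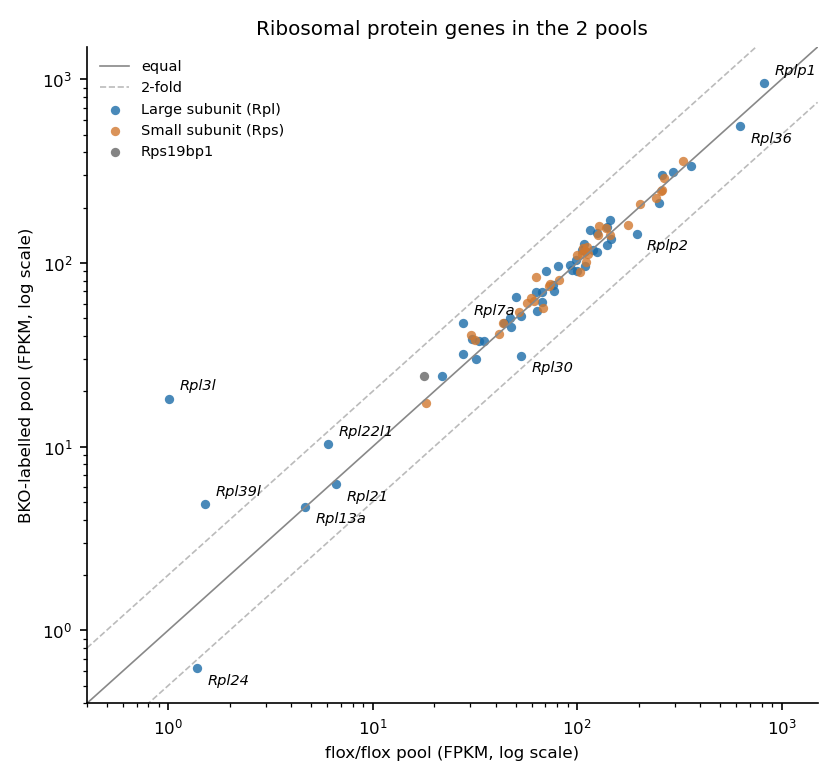
FPKM of the 84 members that passed the filter in the flox/flox pool (horizontal, log scale) and the BKO-labelled pool (vertical, log scale), 1 point per gene, coloured by subunit, with the line of equality and 2-fold lines dashed. Nearly all points lie along the line of equality, and only Rpl3l, Rpl39l and Rpl24 lie beyond 2-fold.

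The ribosomal protein genes stayed close to the same level in both libraries, and much closer than other genes did. Ratios are described here on the log2 scale after adding 0.1 FPKM to both values. Of the 84 members, 2 were at least 2-fold higher in the BKO-labelled pool (Rpl3l and Rpl39l), against 11% of the 12205 genes past the same filter, and 1 was at least 2-fold lower (Rpl24), against 5.91%. The median log2 ratio was 0.08, with quartiles of -0.08 and 0.18, beside a median of 0.02 and quartiles of -0.33 and 0.44 over all genes. A log2 ratio above 0 was found in 51 members (the background was 51.6%), and in 81 when both pools were rescaled to the same sum (TPM), a scaling that moved the median of all genes to 0.35 and that of the members to 0.42. Only the place of the members relative to other genes is therefore read from the ratios. With a narrower limit, 14 of 84 members (16.7%) were past 1.25-fold in either direction, 11 higher and 3 lower, where 55.2% of all genes were, 30% higher and 25.2% lower. Among genes averaging 20 FPKM or more, 50.8% of 2161 were past 1.25-fold, and 10 of 77 members (13.0%) were.

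The 2 subunits had similar medians, 0.08 for the 50 large-subunit members past the filter and 0.06 for the 33 of the small subunit. Past 1.25-fold were 11 large-subunit members and 2 small-subunit members, Rps12 and Rps27a, both higher, and Rps19bp1 was the remaining one. The lowest log2 ratio of a small-subunit member was -0.26, for Rps27rt. Counting error was small against most of these ratios. Of the 79 tested members with fragments determined, the 95% interval lay above 1 in 42, below 1 in 18 and held 1 in 19. Many small ratios thus differed from 1 by more than counting error under the deposited scaling. The side of 1 depends on that scaling, since 81 of the 84 members had a log2 ratio above 0 with TPM. The same count over all genes is not given, so this split is not read as a trait of the members. The spread between mice cannot be read from 2 pools.

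**Figure D2:**
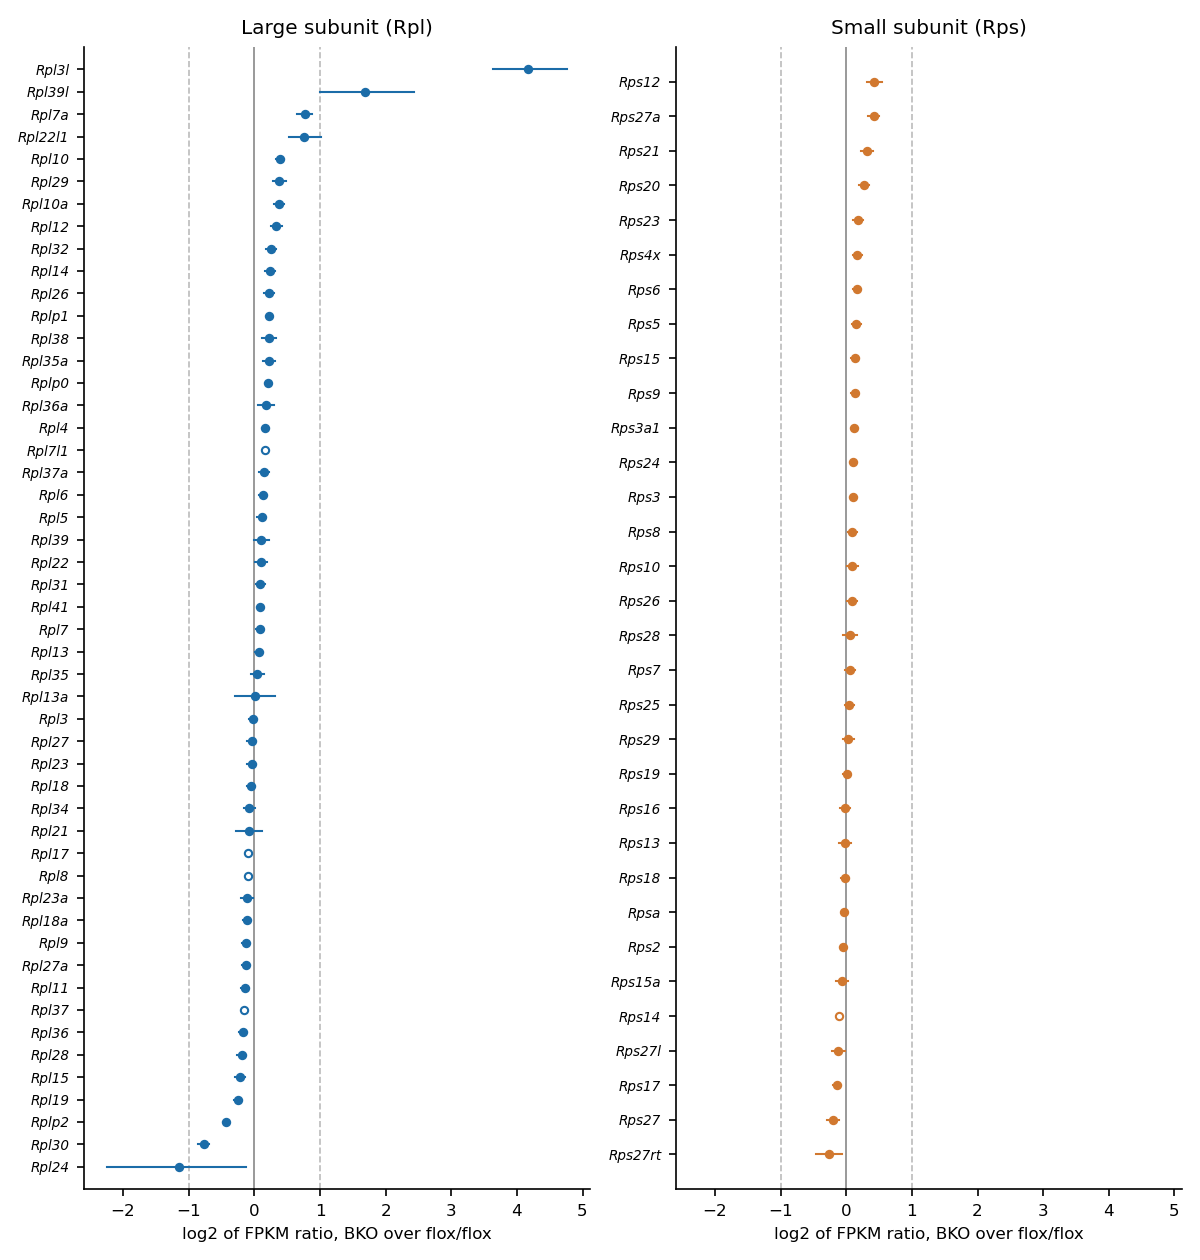
Log2 of the FPKM ratio, BKO-labelled pool over flox/flox, for 50 large-subunit genes (left) and for small-subunit genes (right), sorted by ratio. Lines give the exact 95% counting interval, open points have none because fragments were undetermined (Rpl8, Rpl17, Rpl37, Rpl7l1 and Rps14), dashed lines mark 2-fold, and Rps19bp1 and 1 small-subunit gene are not drawn. Most points lie within a narrow band around 0, with Rpl3l and Rpl39l far to the right and Rpl24 and Rpl30 to the left.

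The mitochondrial ribosomal proteins, which build the ribosome that translates mitochondrially encoded mRNA, gave a contrast. Of 78 genes named Mrpl or Mrps with a number, 77 passed the filter, with a median log2 ratio of -0.04. Of these, 4 were at least 2-fold higher and 0 lower (11% and 5.91% of all genes), and 38 (49.4%) were past 1.25-fold (55.2% of all genes). The width between quartiles was 0.67 on the log2 scale, against 0.26 for the cytosolic members and 0.76 for all genes. Mrpl43 had the highest ratio, 2.94 (2.71 to 3.19), from 36.4 to 107 FPKM, and Mrpl39 the lowest, 0.538 (0.497 to 0.581), from 37.7 to 20.3 FPKM.

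**Figure D3:**
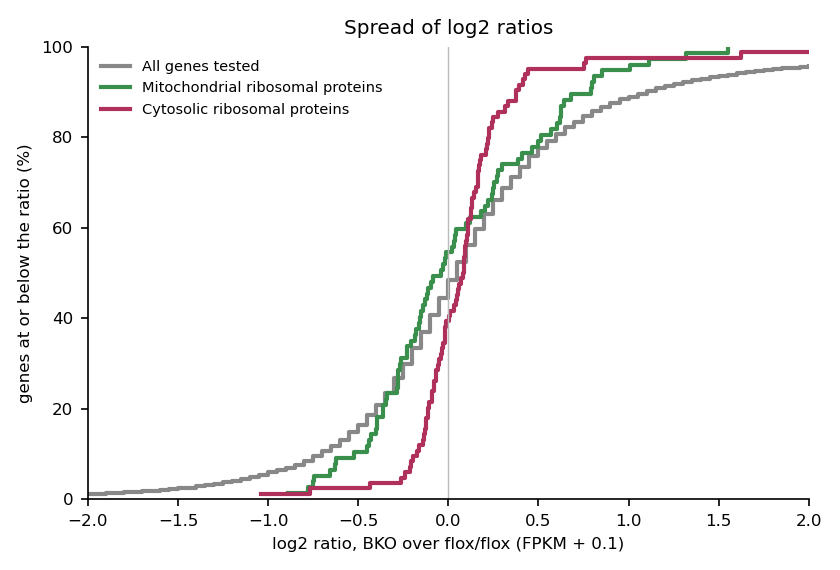
Cumulative share of genes (vertical, %) at or below each log2 ratio (horizontal, FPKM + 0.1, BKO-labelled pool over flox/flox) for the 84 cytosolic and 77 mitochondrial ribosomal protein genes and all 12205 genes past the filter. The cytosolic curve climbs steeply around 0, with quartiles of -0.08 and 0.18, while the mitochondrial curve follows that of all genes.

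The paralogs held the widest ratios. Rpl3l (chr17:24727820-24736143), which in mouse skeletal muscle and heart takes the place of Rpl3 at the peptidyl transferase centre, had 1.01 FPKM (29 fragments) in the flox/flox pool and 18.2 FPKM (606 fragments) in the BKO-labelled pool. The ratio was 18.0 (12.4 to 27.2). None of the 50-base stretches of its main transcript occurs in another gene, and it has no processed copy. Rpl3 itself was at 76.5 and 75.7 FPKM, a ratio of 0.989 (0.948 to 1.03), so the share of Rpl3l in the summed FPKM of the pair went from 1.30% to 19.4%. This share is smaller per length of the main transcript, where Rpl3 was at 177 and 175 and Rpl3l at 1.21 and 21.8. Of the stretches of Rpl3, 85.6% occur in other genes, so its level can be too low. The skeletal muscle markers moved with Rpl3l, 12 of 12 at least 2-fold higher, beside 11% of all genes past the filter. Their summed level went from 57.0 to 3571 FPKM, and their part in the Rpl3l value was not tested.

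Rpl39l, known from male germ cells in mouse, had 1.51 FPKM (22 fragments) and 4.88 FPKM (82 fragments), a ratio of 3.22 (1.99 to 5.41), and likewise shares no stretch with another gene. Rpl39, whose protein lines the exit tunnel, was at 46.8 and 50.4 FPKM. By FPKM, Rpl39l thus made up 3.14% and 8.82% of the pair. This share is smaller per length of the main transcript, where Rpl39 was at 110 and 118 and Rpl39l at 1.56 and 5.03. Rpl22l1 had 6.07 FPKM (211 fragments) and 10.3 FPKM (415 fragments), a ratio of 1.70 (1.44 to 2.01), beside Rpl22 at 35.0 and 37.4 FPKM, and its share of the pair was 14.8% and 21.6%. Of the stretches of Rpl22l1, 65.6% occur in other genes. Per length of the main transcript, Rpl22 was at 215 and 230 and Rpl22l1 at 21.9 and 37.1, again a smaller share.

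The other paralogs kept their shares of the summed FPKM within 2 percentage points. Rps27l, a target of p53, was at 110 and 101 FPKM and made up 51.7% and 53.1% of its pair with Rps27 (103 and 89.7 FPKM). The order of this pair reversed per length of the main transcript, with Rps27 at 313 and 271 and Rps27l at 181 and 166. Rps27rt, an intronless copy of Rps27, was at 67.8 and 56.5 FPKM and made up 39.6% and 38.7% of its pair. Since 98.6% of the stretches of Rps27 and 91.1% of those of Rps27rt occur in other genes, their levels are uncertain. Rpl7l1 was at 21.8 and 24.4 FPKM beside Rpl7 at 92.6 and 97.9 FPKM, 19.0% and 19.9% of the pair. Per length of the main transcript, Rpl7l1 was at 29.2 and 32.7 and Rpl7 at 214 and 226. The main copies of the paralogs listed at too low a level to be compared were Rpl10 (115 and 151 FPKM) and Rpl36a (33.3 and 37.8 FPKM).

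Some copies outside the rule were expressed too. Rps4l, a copy of Rps4x that the annotation calls a transcribed processed pseudogene, had 26.0 FPKM (429 fragments) and 61.9 FPKM (1182 fragments), a ratio of 2.38 (2.13 to 2.66), beside Rps4x at 107 and 120 FPKM. Rps12-ps3 was at 62.8 and 70.3 FPKM and Rpl9-ps6 at 35.2 and 34.5 FPKM, both annotated as protein-coding and chosen here after their values were seen.

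**Figure D4:**
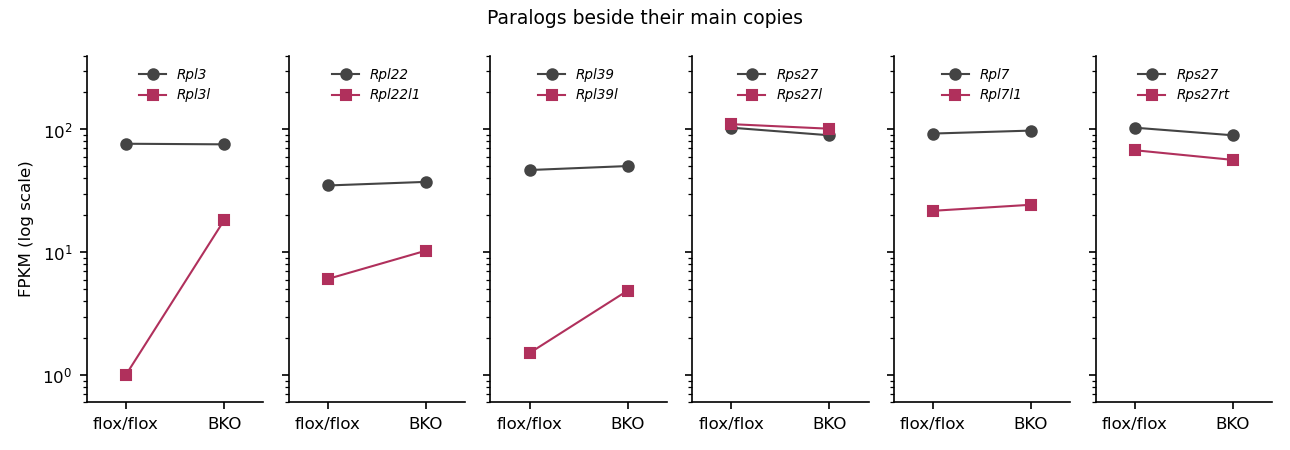
FPKM (log scale) of 6 paralogs (squares) and their main copies (circles) in the flox/flox pool and the BKO-labelled pool, with lines joining the values of 1 gene. Rpl3l goes from 1.01 to 18.2 FPKM and Rpl39l from 1.51 to 4.88 FPKM, while their main copies lie nearly level.

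Apart from the paralogs, the highest ratio was that of Rpl7a, at 27.7 FPKM (861 fragments) and 47.0 FPKM (1694 fragments), or 1.70 (1.56 to 1.85). Rpl7a has 131 processed copies in the tables, the most of any member. Its copies held 433 fragments in the flox/flox pool and 356 in the BKO-labelled pool, and with their fragments added the ratio was 1.37 (1.28 to 1.47). Rps19bp1 had a ratio of 1.36 (1.16 to 1.60) from 17.9 to 24.3 FPKM and Rps12 one of 1.35 (1.25 to 1.46) from 30.3 to 40.7 FPKM. Rps27a, which is made as a fusion with ubiquitin, was at 63.0 and 84.1 FPKM, a ratio of 1.33 (1.26 to 1.41). Rpl10, a protein that joins the large subunit last, followed at 1.31 (1.26 to 1.37), Rpl29 at 1.30 (1.21 to 1.39), and Rpl10a of the L1 stalk at 1.30 (1.23 to 1.37). Rpl12, at 1.26 (1.19 to 1.33), was the last of the 11 members at least 1.25-fold higher and is named for that reason after its value was seen. With copies added, Rpl12 fell below that limit, at 1.23 (1.17 to 1.30). Rps27a was then at 1.29 (1.23 to 1.36) and Rpl29 at 1.30 (1.22 to 1.38). Rps6, the small-subunit protein phosphorylated by S6 kinase, was at 139 and 155 FPKM, a ratio of 1.12 (1.07 to 1.17).

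The P-stalk genes did not share a direction. Rplp0 had a ratio of 1.16 (1.12 to 1.19) and Rplp1 one of 1.17 (1.13 to 1.20). Rplp2, the partner of Rplp1 in the stalk, was at 195 FPKM (7076 fragments) and 145 FPKM (6070 fragments), a ratio of 0.741 (0.716 to 0.767). It has 2 processed copies with 1 and 2 fragments in total, and 30.7% of its stretches occur in other genes. In the 5S RNP, which joins the large subunit and also binds Mdm2, Rpl5 was at 43.9 and 47.4 FPKM and Rpl11 at 100.03 and 90.8 FPKM, ratios of 1.08 (1.03 to 1.13) and 0.907 (0.872 to 0.945), the latter above 1 with TPM.

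At the low end, Rpl24 had 1.39 FPKM (25 fragments) and 0.624 FPKM (13 fragments), a ratio of 0.449 (0.211 to 0.912). Of its exon bases, 47.0% lie in exons of Gm28037, which was listed at 0 in both libraries, and 81.7% of its stretches occur in other genes, so its level is uncertain. With its 11 copies added, Rpl24 had 107 and 111 fragments, a ratio of 0.896 (0.681 to 1.18), and the call was lost. After Rpl30 and Rplp2, the next lowest ratios were 0.834 (0.729 to 0.955) for Rps27rt, 0.845 (0.810 to 0.881) for Rpl19, 0.861 (0.817 to 0.909) for Rpl15, 0.867 (0.813 to 0.925) for Rps27, 0.874 (0.834 to 0.916) for Rpl28, 0.885 (0.849 to 0.923) for Rpl36 and 0.893 for Rpl37, and all of these were above 1 with TPM.

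Rpl30 was lower in the BKO-labelled pool while 4 of its processed copies were higher. Rpl30 (chr15:34440505-34443640, minus strand), a small protein of the large subunit, had 53.4 FPKM (2820 fragments) in the flox/flox pool and 31.3 FPKM (1916 fragments) in the BKO-labelled pool, a ratio of 0.587 (0.553 to 0.622). Its copy Gm12191 (chr11:49678710-49679057) had 46 and 736 fragments, and its copy Rpl30-ps10 (chrX:71803688-71804034) had 7 and 253 fragments. These ratios were 13.8 (10.3 to 19.0) and 31.2 (14.9 to 78.4). Rpl30-ps1 went from 4 to 47 fragments and Rpl30-ps8 from 1 to 12. Rpl30 and its 19 copies together held 2892 and 2974 fragments, a ratio of 0.888 (0.844 to 0.935), of which the copies took 2.49% in the flox/flox pool and 35.6% in the BKO-labelled pool.

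The sequence of Gm12191 matches the coding part of the Rpl30 main transcript over 348 bases with 1 substitution, G273A, in which the first base is that of Rpl30 and positions are counted from 1 at the 5′ end of the 570-base transcript. Rpl30-ps10 carries the same substitution together with G187T and C197T. The 25 bases around position 273 are shown because the main gene and these copies differ in them, with the differing base in capitals.
Rpl30 (chromosome 15): gctgggctacaaGcagactctgaag
Gm12191 (chromosome 11) and Rpl30-ps10 (chromosome X): gctgggctacaaAcagactctgaag
Of the 19 copies, 16 have A at this position, and these held 72 fragments in the flox/flox pool and 1057 in the BKO-labelled pool. The only copy with G, Gm6109, held 0 and 1, and 2 copies did not align there. Not every copy with A had more fragments in the BKO-labelled pool, since Rpl30-ps2 and Rpl30-ps3 had 2 in both libraries and Rpl30-ps9 had 5 and 3. Whether the fragments counted in the copies came from the copies or from Rpl30 was not tested, because the reads were not analysed here.

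**Figure D5:**
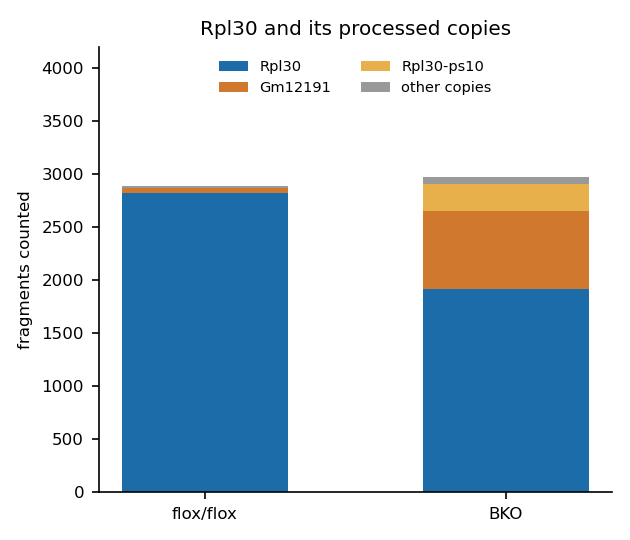
Fragments counted (vertical, stacked) in Rpl30, Gm12191, Rpl30-ps10 and the other copies, in the flox/flox pool and the BKO-labelled pool. The stacks are nearly equally high, at 2892 and 2974 fragments, while the part of Rpl30 goes from 2820 to 1916.

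Altogether 1668 processed copies with deposited values matched a member best, and 513 of them held fragments. Their number ran from none in 5 members to 131, with a median of 13.5, and 25 members had at least 20. The copies took 6.70% of the fragments of members and copies in the flox/flox pool and 6.77% in the BKO-labelled pool. Of 152 copies past the filter, 7 were at least 2-fold higher and 21 lower, beside 11% and 5.91% of all genes past the filter. Of the 81 copies among them with at least 80 fragments in both libraries together, 3 were higher and 2 lower. Those were Gm12191, Rpl30-ps10 and Gm5905, a copy of Rps9 (25 and 86 fragments), and Gm10243, a copy of Rpl35a (140 and 55), and Gm8730, a copy of Rplp0 (139 and 62). These copies were named after their values were seen. Rps4l, described above, was not among the copies found by the matching rule, so these counts leave it out. Below 80 fragments, Rpl35a-ps2, another copy of Rpl35a, had 62 and 5 fragments, a ratio of 0.070 (0.022 to 0.171). With the copies added, Rpl35a changed from a ratio of 1.16 (1.09 to 1.24) to 1.06 (0.998 to 1.13).

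Copies and overlaps also bear on how low some members were listed. Rpl21 was at 6.63 and 6.26 FPKM, and its 105 copies held 69.7% and 71.5% of the fragments of the gene and copies together. For Rpl17, which has 68 copies, they held 72.4% and 74.2%. Rpl13a, often used as a reference gene, was at 4.68 and 4.72 FPKM, and 35.4% of its exon bases lie in exons of other genes, foremost Gm45713, which was listed at 0. In all, 12 members had at least 20% of their exon bases inside another gene's exons and 46 shared at least 50% of their stretches with other genes. These 3 members were chosen after their values were seen. The 25 members with many copies had a median log2 ratio of 0.00 and the 59 others past the filter one of 0.09.

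Past 1.25-fold were 16.7% of the members tested and 55.2% of all genes, so counts in the small sets below are described only. The 11 genes of the peptidyl transferase centre and exit tunnel had a median log2 ratio of 0.04, and only Rpl10 among them was past 1.25-fold. The 7 genes of the mRNA channel of the small subunit had a median of 0.06, with none past 1.25-fold. Of 19 genes mutated in human Diamond-Blackfan anaemia, an inherited failure of red cell production, 0 were past 1.25-fold, with ratios between 0.861 (0.817 to 0.909) for Rpl15 and 1.17 (1.11 to 1.23) for Rpl26, and a median log2 ratio of 0.04.

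Other genes of translation were compared by the same counts. Of 18 other TOP mRNAs, which encode elongation factors, initiation factor subunits and related proteins, 0 were past 2-fold (11% of all genes were higher and 5.91% lower) and 5 past 1.25-fold (55.2% of all genes), with a median log2 ratio of 0.04. The highest was Eef1d, a subunit of the elongation factor complex that recharges Eef1a, at 1.59 (1.47 to 1.72), and the lowest Pabpc1, the poly(A)-binding protein, at 0.784 (0.755 to 0.813). The 46 ribosome biogenesis genes, which include Rps19bp1, had a median of 0.24, beside 0.02 for all genes, with 34 above 0 (51.6% of all genes) and 17 at least 1.25-fold higher (30% of all genes). None was past 2-fold. Gnl3, the nucleolar GTPase nucleostemin, was at 8.51 and 16.8 FPKM, a ratio of 1.97, and Dkc1, the pseudouridine synthase dyskerin, at 8.37 and 5.73 FPKM, a ratio of 0.685 (0.606 to 0.773). In the mTORC1 axis, 0 of 14 genes were past 2-fold, beside the same 11% and 5.91% of all genes, and the median was -0.01. Larp1 had the highest ratio in this list, 1.41 (1.33 to 1.50), and Mlst8, a subunit of the complex, the lowest, 0.720.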

How the data were processed

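Total RNA of iBAT was sequenced in 2 libraries, 1 per group, each from 4 pooled mice. The authors aligned paired-end reads to GRCm38 with TopHat2, obtained counts with HTSeq 0.6.1 (tools as in the submitters' processing notes), and from these derived the deposited FPKM. Strand and multi-mapping settings are not given in the sources used here, and the scaling is known only from the values, which correspond to 17480546 fragments for flox/flox and 20240633 for BKO. HTSeq usually drops reads that fit several genes, so genes with copies can be too low.

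Each table held 52768 genes, of which 52489 matched GENCODE M21 (GRCm38). Fragments were recovered as FPKM times exon length in whole multiples of 1 constant per library (within 0.001 fragments plus a relative 1e-08), for 22405 of 24856 genes above 0 at the annotated length and 1001 at another length within 50% of it. The recovery was tested on simulated data. The deposited scaling was kept. A pseudocount of 0.1 FPKM and a filter at a mean of 1 FPKM were used. No count model was run and no p-value given, since each group has 1 library. Versions were Python 3.11.15, pandas 2.3.3, scipy 1.17.1 and BLAST+ 2.17.0.

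Processed copies were pseudogenes in the tables whose best blastn hit among the members' main transcripts covered at least 100 bases and 50% of the copy at 80% identity (1668 of 1883 annotated, the other copies not analysed here). A copy counts for its best-matching member only. Alternatives changed the pseudocount, the filter, the scaling and the members kept. Members named were the 10 highest by mean FPKM, the 10 highest and 10 lowest log2 ratios, all past 2-fold, the paralogs with their main copies, the P-stalk, 5S RNP and ubiquitin and S6 genes, and the largest rise and fall of each other list. Members and lists were chosen with earlier results of these data known. 2 named genes are not reported here.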

Additional observations from a re-analysis of the deposited data

How the results depend on the processing

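The count of members at least 2-fold higher, 2 with the deposited scaling, was 1 with a filter at 5 FPKM, 4 with TPM and 0 without the paralogs. The count at least 2-fold lower, 1 (Rpl24), was 0 with a pseudocount of 1 FPKM, with the filter at 5 FPKM, with TPM, with each library scaled to its own fragments, and, in alternatives chosen after seeing the data, with copies added and without members whose exons are overlapped. TPM shifted the median log2 ratio of all genes by 0.33 and own totals by 0.11. The median of the members became 0.42 with TPM and 0.20 with own totals, that of the large subunit 0.42 and 0.20, and that of the small subunit 0.39 and 0.17. Under TPM 81 of 84 members were above 0. The share of the members in fragments was 1.69% and 1.71% (flox/flox and BKO) over nuclear genes. In summed FPKM it was 3.49% and 3.65% over nuclear genes, and 2.15% and 2.81% over all genes. Of the 37 named members with a counting interval, 33 moved beyond counting error with TPM and 28 with own totals. Ratios below 1 for Rpl36, Rpl19, Rpl15, Rpl28, Rps27, Rps27rt, Rpl11, Rpl37, Rps2, Rps14, Rpl8, Rpl3 and Rps27l were above 1 with TPM, so only the members' place relative to other genes is given by these data. Counted without their copies, Rpl30, Rplp2 and Rpl24 stayed below 1 under every scaling tried. With copies added, Rpl30 was at 0.888 (0.844 to 0.935) and Rpl24 at 0.896 (0.681 to 1.18), with the deposited scaling only. No paired analysis was possible because each group has 1 library.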
